A study of Homo sapiens with 36 samples.

Results

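The genes described here are 6 targets of the transcription factor NRF2 (HMOX1, NQO1, GCLM, GCLC, TXNRD1 and SRXN1) and 4 genes of the aryl hydrocarbon receptor, AhR (its targets CYP1A1, ALDH3A1 and TIPARP, and AHR, which encodes the receptor itself). They were taken by name, as 10 of the 20802 genes in the count matrix. All 10 had a row, and 9 passed the filter on low counts. TXNRD1 did not. The cells were LoVo, an established human colorectal cancer line, which received either a MEK inhibitor for 24 hours, at 0.03, 0.1, 0.3, 1, 3, 10, 30, 100, 300 or 1000 nM, or the solvent DMSO. MEK is the kinase that activates ERK. There were 3 libraries for every dose, 3 for DMSO labelled chip 1 and 3 for DMSO labelled chip 2. The labels give no chip for treated libraries. The labels speak of biological replicates but do not say how the cultures were separated, so p-values measure the spread between these libraries, part of which may be technical.

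NRF2, encoded by NFE2L2, is held at a low level by KEAP1, which binds it to a CUL3 ubiquitin ligase. When KEAP1 is modified by electrophiles, NRF2 enters the nucleus, pairs with a small MAF protein and binds antioxidant response elements, which the repressor BACH1 also occupies, at the HMOX1 gene in particular. AhR is a cytosolic receptor for aromatic compounds that is kept in a complex with HSP90. After it binds a ligand it pairs with ARNT and binds xenobiotic response elements, at CYP1A1 and at TIPARP and AHRR, whose products restrain the receptor in turn. Both factors are active in the intestinal epithelium, which meets dietary electrophiles and aromatic compounds, and NQO1 and ALDH3A1 are known as targets of either.

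Promoter windows of RefSeq (build GRCh38.p14), from 250 bases before to 50 bases after an annotated start, were given for 8 of the 10 genes, with several starts for some. HMOX1 and ALDH3A1 had no entry. The windows were searched on both strands for the core of the antioxidant response element (TGACNNNGC), the core of the xenobiotic response element (GCGTG) and the AP-1 site (TGANTCA), which can share its first bases with the antioxidant element. The stretches before the start of GCLM, SRXN1 and CYP1A1 are shown because the levels of these genes differed between 1000 nM and DMSO in opposite directions. Capitals mark either core, on either strand, and each sequence runs in the direction of its gene, on the minus strand of chr1:93909431-93909680, chr20:653201-653450 and chr15:74725529-74725778.
GCLM: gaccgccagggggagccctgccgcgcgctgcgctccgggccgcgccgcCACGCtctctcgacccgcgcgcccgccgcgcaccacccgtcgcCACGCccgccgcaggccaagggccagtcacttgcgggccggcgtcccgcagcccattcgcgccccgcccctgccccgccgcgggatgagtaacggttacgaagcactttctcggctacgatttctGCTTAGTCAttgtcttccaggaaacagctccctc
SRXN1: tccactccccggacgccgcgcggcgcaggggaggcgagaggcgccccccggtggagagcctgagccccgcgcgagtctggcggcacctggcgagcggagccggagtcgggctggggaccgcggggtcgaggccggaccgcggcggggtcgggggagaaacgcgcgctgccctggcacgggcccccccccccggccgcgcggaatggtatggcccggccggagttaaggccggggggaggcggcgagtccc
CYP1A1: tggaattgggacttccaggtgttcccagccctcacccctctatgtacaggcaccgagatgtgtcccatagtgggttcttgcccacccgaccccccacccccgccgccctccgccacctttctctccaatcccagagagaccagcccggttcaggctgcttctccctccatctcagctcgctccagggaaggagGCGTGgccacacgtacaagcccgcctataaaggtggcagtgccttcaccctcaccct

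In GCLM the longest run in capitals is an antioxidant core that began 34 bases before the start, and the other 2 are xenobiotic cores, 202 and 159 bases before it. The CYP1A1 stretch held 1 xenobiotic core, 57 bases before the start, and the SRXN1 stretch held neither core. The window of SRXN1 had a xenobiotic core at base 24 of the transcript. Among the 5 NRF2 targets with a window, an antioxidant core was present in the 1 window of GCLM and in both windows of TXNRD1. Of all 35116 windows 13.3% held one. A xenobiotic core stood in 8 of the 11 windows of the 8 genes, NRF2 targets included, against 36.5% of all windows. The 3 windows without one belong to further starts of TIPARP and to 1 of the 2 starts of TXNRD1. No window of the 8 genes held an AP-1 site, against 7.71% of all windows. A match is a description of letters and not a binding site, and no match says only that these letters are not in this window.

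Counts came from short amplicons, 1 assay per gene, so levels of different genes are not compared with each other. Total counts ran from 2972186 to 4751839 per library. As a check of the labels, DUSP6, a phosphatase gene induced by ERK signalling, had 1.41 to 2.34 CPM (counts scaled to a common library size) in the 3 libraries of 1000 nM, against 58.5 to 69.5 CPM in the 6 DMSO libraries. All 12 markers of intestinal epithelium were detected, with a summed level of 4464 to 4940 CPM at 1000 nM and 4171 to 4380 CPM in DMSO. The sum covers changes in both directions by the test described below, which called 41.8% of all tested genes. CDH1, CDX1, CDX2, KRT19 and VIL1 were called higher at 1000 nM, and KRT8, KRT18, CDH17 and GPA33 lower. EPCAM, KRT20 and LGALS4 were not called. The 9 fibroblast markers summed to 41.0 to 42.4 CPM at 1000 nM and to 3.28 to 4.51 CPM in DMSO, with COL1A2, THY1, FAP and POSTN at 0 counts in both and DCN at 0 in DMSO. The 6 leukocyte markers summed to 77.2 to 95.8 CPM at 1000 nM and to 16.5 to 23.5 CPM in DMSO, with the defining genes PTPRC and CD3E at 0 in both. The 6 hepatocyte markers, of a tissue rich in AhR targets, summed to at most 0.281 CPM at 1000 nM and 0.681 CPM in DMSO, with ALB and APOA1 at 0 in both. The part of the epithelial, fibroblast and leukocyte marker changes in the results below was not tested. The libraries farthest from the mean of their group were replicates 1 and 3 of 1000 nM and replicate 1 of 1 nM, and calls that changed without all 3 of them are given with both values. In bulk RNA, fewer cells of a type and less RNA per cell cannot be told apart.

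The genes of neither class moved together. At 1000 nM, HMOX1, CYP1A1 and ALDH3A1 were higher than in DMSO, by 3.55-fold, 3.63-fold and 3.11-fold, GCLM and SRXN1 were lower, and NQO1, GCLC, TIPARP and AHR did not pass the test. Of the 5 NRF2 targets tested, 1 was called higher and 2 lower, with a median log2 fold change of -0.42. Of the 4 AhR genes, 2 were called higher and none lower, with a median of 0.78. The median over all 12102 tested genes was 0.01. A gene was called when edgeR's quasi-likelihood test gave a Benjamini-Hochberg adjusted p below 0.05, over all tested genes, against the DMSO libraries of both chips. At 1000 nM this called 41.8% of all tested genes, 21.2% higher and 20.7% lower, so 5 of 9 genes is not far from the background of this contrast.

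**Figure D1:**
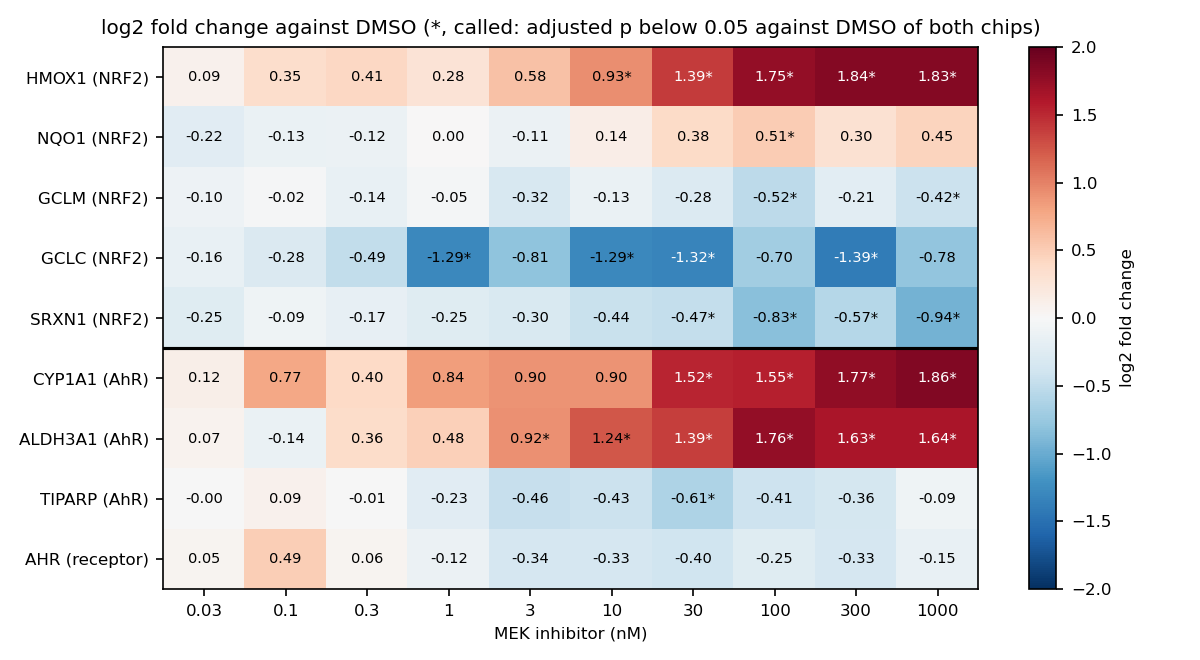
log2 fold change against DMSO of the 5 tested NRF2 targets (above the line) and the 4 AhR genes (below it) at each dose of the MEK inhibitor in nM, with a star where the gene was called. HMOX1, CYP1A1 and ALDH3A1 reach 1.83, 1.86 and 1.64 at 1000 nM, while the other rows are pale or blue at the upper doses.

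Calls among the 9 genes appeared with dose. At 0.03, 0.1 and 0.3 nM none of the 9 was called, against a background of 0% at each of these doses, none had an unadjusted p below 0.05, and DESeq2 and limma voom also called 0. At 1 nM GCLC was called lower, where 7.97% of all tested genes were called, 3.95% higher and 4.02% lower. At 3 nM ALDH3A1 was called higher (13.3% of all tested genes, 6.66% higher and 6.68% lower). At 10 nM HMOX1 and ALDH3A1 were called higher and GCLC lower (26.8% of all tested genes, 13.5% higher and 13.3% lower). At 30 nM HMOX1, CYP1A1 and ALDH3A1 were called higher and GCLC, SRXN1 and TIPARP lower (36% of all tested genes, 18% higher and 18% lower). At 100 nM HMOX1, NQO1, CYP1A1 and ALDH3A1 were called higher and GCLM and SRXN1 lower (37.2% of all tested genes, 18.4% higher and 18.8% lower). At 300 nM HMOX1, CYP1A1 and ALDH3A1 were called higher and GCLC and SRXN1 lower (45.1% of all tested genes, 22.1% higher and 23% lower). All of these comparisons share the DMSO libraries. The median log2 fold change of the NRF2 targets took no steady course, with -0.05, -0.30 and -0.13 at 1, 3 and 10 nM and -0.28, -0.52 and -0.21 at 30, 100 and 300 nM. That of the AhR genes was 0.18, 0.28 and 0.28 at 1, 3 and 10 nM and 0.50, 0.65 and 0.65 at 30, 100 and 300 nM. It fell between CYP1A1 and ALDH3A1, which were above 0 at these doses, and AHR and TIPARP, which were below 0. At 30 nM, for example, CYP1A1 and ALDH3A1 stood at 1.52 and 1.39, and AHR and TIPARP at -0.40 and -0.61. The median over all tested genes was between 0.00 and 0.01 at these doses.

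**Figure D2:**
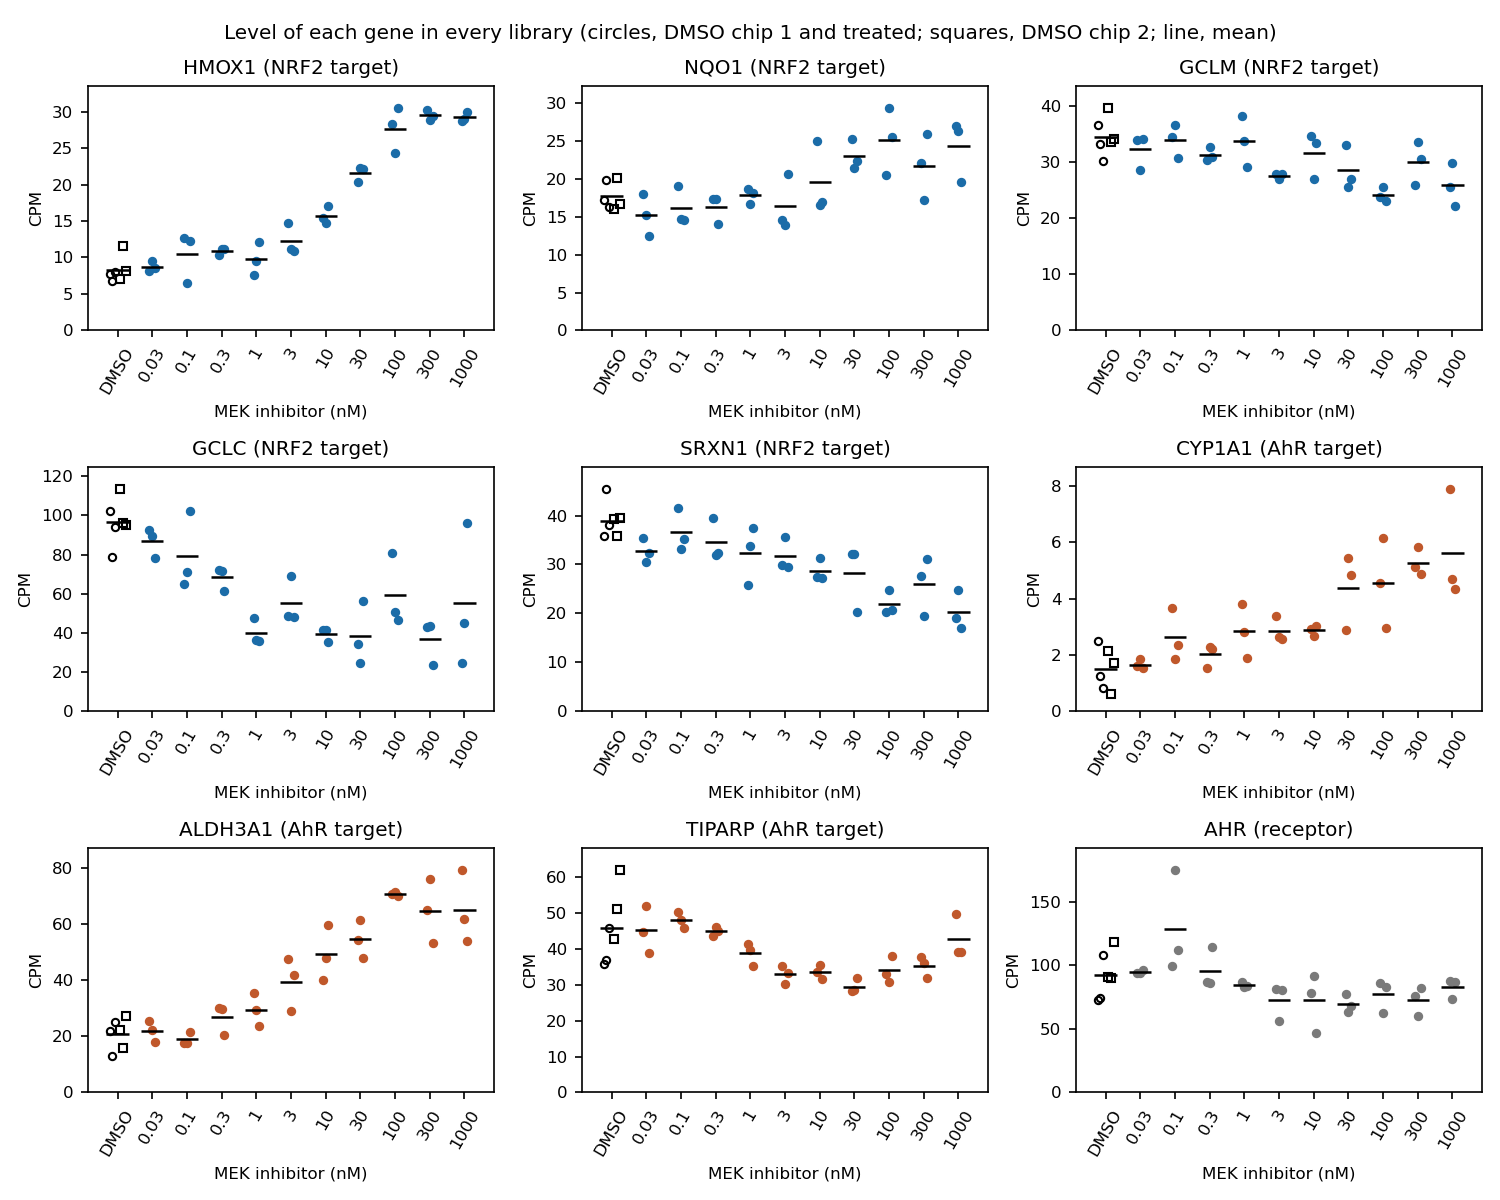
CPM of the 9 tested genes in every library, with DMSO (open symbols, circles for chip 1 and squares for chip 2) at the low end of the dose axis and a line at the mean of each dose. The means of HMOX1 are 15.7, 21.6 and 27.7 CPM at 10, 30 and 100 nM and 29.5 and 29.2 CPM at 300 and 1000 nM, where its libraries lie close together, whereas the 3 GCLC libraries at 1000 nM spread over 24.5 to 96.3 CPM.

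HMOX1 encodes heme oxygenase 1, which breaks heme down to biliverdin, carbon monoxide and iron. Its level was 28.7, 29.0 and 29.9 CPM in the 3 libraries of 1000 nM, against a lowest, median and highest value of 6.81, 7.87 and 11.6 CPM in the 6 DMSO libraries. The means were 29.2 ± 0.639 CPM at 1000 nM and 8.23 ± 0.906 CPM in DMSO (SD, n = 3 each, where DMSO libraries of the same number on both chips were averaged first). Every treated library lay far above every DMSO library, and the 3 treated libraries were within 1.04-fold of each other. The log2 fold change was 1.83 (SE 0.195, adjusted p = 4.16e-10).

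Along the dose series the mean of HMOX1 was 8.72 CPM at 0.03 nM, 10.5 CPM at 0.1 nM, 10.9 CPM at 0.3 nM, 9.77 CPM at 1 nM, 12.3 CPM at 3 nM, 15.7 CPM at 10 nM, 21.6 CPM at 30 nM, 27.7 CPM at 100 nM and 29.5 CPM at 300 nM. It was called from 10 nM on, with a log2 fold change of 0.93 (SE 0.212, adjusted p = 0.00301) at 10 nM and 1.39 (SE 0.202, adjusted p = 1.45e-06) at 30 nM. From 10 nM up all treated libraries were above all DMSO libraries. Below 10 nM the values overlapped with those of DMSO, and at 0.1 nM they ran from 6.52 to 12.7 CPM.

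NQO1 encodes a quinone reductase and is a classical target of NRF2 that AhR also controls. It had 27.0, 26.3 and 19.5 CPM at 1000 nM, against 16.0, 17.0 and 20.1 CPM as lowest, median and highest value in DMSO. The means were 24.3 ± 4.13 CPM at 1000 nM and 17.7 ± 1.99 CPM in DMSO (SD, n = 3 each). Replicate 3 of 1000 nM lay inside the DMSO range and the other 2 above it. The difference of 0.45 on the log2 scale was not called (SE 0.192, adjusted p = 0.0539), and without replicate 3 it was 0.59 (adjusted p = 0.0175). At 100 nM the libraries had 20.6, 29.3 and 25.5 CPM, all above DMSO, and the gene was called (log2 fold change 0.51, SE 0.191, adjusted p = 0.0294). That call was lost without replicate 2 (adjusted p = 0.183) or 3 (0.0711) of 100 nM, replicate 1 (0.0849) or 3 (0.108) of DMSO chip 1, or replicate 1 (0.115) or 3 (0.0903) of DMSO chip 2, with log2 fold changes of 0.37 to 0.49. At 30 nM (0.38, adjusted p = 0.127) and 300 nM (0.30, adjusted p = 0.211) it was not.

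GCLM encodes the modifier subunit of glutamate-cysteine ligase, which makes the first step of glutathione synthesis more efficient. It had 25.6, 29.8 and 22.2 CPM at 1000 nM, against 30.3, 33.8 and 39.6 CPM as lowest, median and highest DMSO value. The means were 25.9 ± 3.83 CPM at 1000 nM and 34.6 ± 3.13 CPM in DMSO (SD, n = 3 each). The groups did not overlap, but the gap between the closest libraries was small. The log2 fold change was -0.42 (SE 0.145, adjusted p = 0.03). Without the 3 libraries named above as farthest from their group means it was -0.23 (adjusted p = 0.582). The call was also lost without replicate 1 (adjusted p = 0.0602) or 3 (0.173) of 1000 nM, or replicate 1 (0.122) or 2 (0.0515) of DMSO chip 1. At 100 nM, with 23.8, 25.6 and 23.1 CPM, GCLM was also lower (-0.52, SE 0.145, adjusted p = 0.00727), while at 300 nM, with 26.0, 33.6 and 30.6 CPM, it was not called and overlapped with DMSO.

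GCLC encodes the catalytic subunit of the same ligase. In the 6 DMSO libraries it had 78.6, 95.5 and 113 CPM as lowest, median and highest value. At 1 nM it had 47.6, 36.2 and 35.8 CPM, at 10 nM 41.7, 41.4 and 35.2 CPM, and at 300 nM 43.0, 43.8 and 23.4 CPM. All libraries of these 3 doses lay below every DMSO library, as did those of 0.3, 3 and 30 nM. At 0.3 nM, where the highest library had 72.3 CPM, the log2 fold change was -0.49 and GCLC was not called. GCLC fell at 1 nM by 1.29 on the log2 scale (SE 0.336, adjusted p = 0.0229), at 10 nM by 1.29 (SE 0.339, adjusted p = 0.00837), at 30 nM by 1.32 (SE 0.337, adjusted p = 0.00474) and at 300 nM by 1.39 (SE 0.338, adjusted p = 0.00221). The call at 1 nM was lost without replicate 2 (adjusted p = 0.0836) or 3 (0.0682) of that dose, or replicate 1 (0.078) or 3 (0.0572) of DMSO chip 1, with log2 fold changes of -1.29 to -1.23. GCLC was not called at 3 nM (-0.81, adjusted p = 0.148) or 100 nM (-0.70, adjusted p = 0.133).

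At 1000 nM the 3 GCLC libraries had 24.5, 45.0 and 96.3 CPM, a mean of 55.3 ± 37.0 CPM against 96.6 ± 10.4 CPM in DMSO (SD, n = 3 each). Replicate 3 lay within the DMSO range and replicate 1 far below it. The log2 fold change was -0.78 (SE 0.324, adjusted p = 0.0814), and without replicate 3 it was -1.48 (adjusted p = 0.000774), without replicate 1 -0.44 (adjusted p = 0.39). Without the 3 libraries farthest from their group means it was -1.11 (adjusted p = 0.0422). The dispersion of GCLC between libraries of a group, with a biological coefficient of variation of 27.7%, was above that of 98.9% of tested genes.

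The spread of GCLC was shared with other genes. Over the 36 libraries its deviation from the group mean had a correlation of 0.877 with the main axis of such deviations, computed from 8467 genes without the genes described here. The axis held 22.3% of the squared deviation, and 98.9% of genes had a smaller absolute correlation with it. Replicates 1 and 3 of 1000 nM stood at its 2 ends, at -0.492 and 0.469. Among the genes that deviated most like GCLC were NAPA (r = 0.961), which encodes a membrane fusion adaptor, and EIF4B (r = 0.940), a translation initiation factor. EIF4B had 145, 313 and 800 CPM in replicates 1, 2 and 3 of 1000 nM, in the same order as GCLC. These correlations are descriptions over 36 libraries in 12 groups that share their library preparation. What the axis stands for was not tested.

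**Figure D3:**
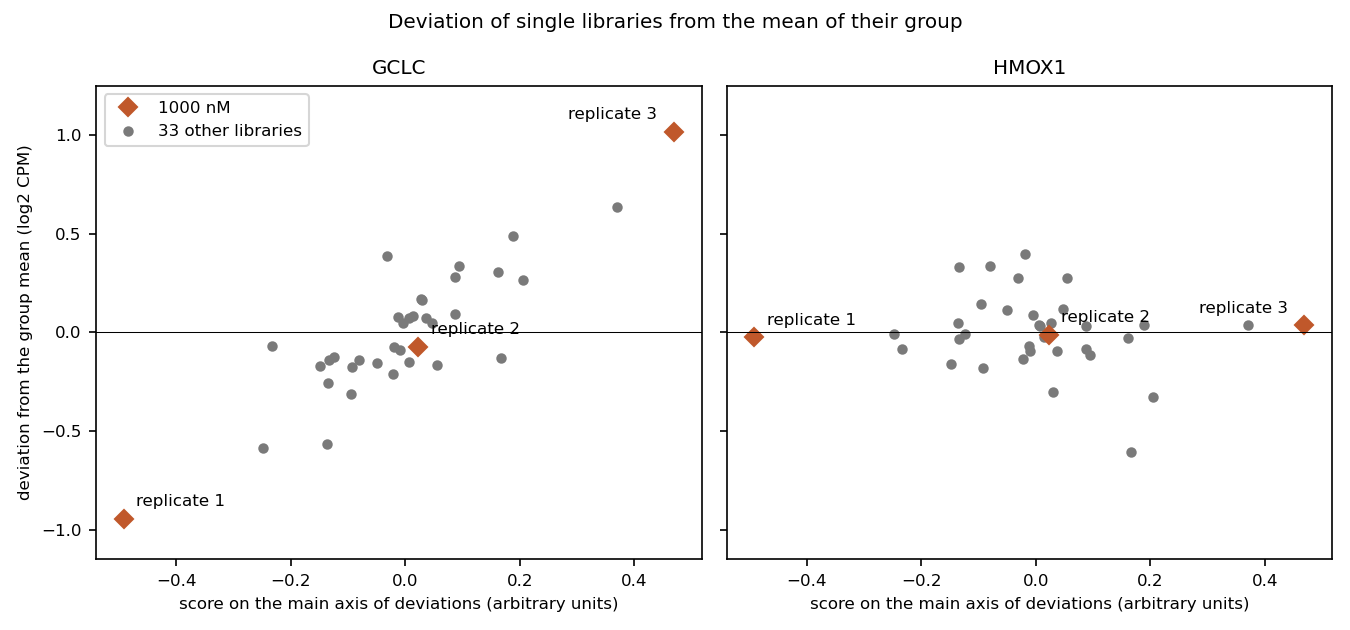
Deviation of GCLC (left) and HMOX1 (right) from the group mean in log2 CPM for each of 36 libraries, against the score of the library on the main axis of deviations. GCLC follows the axis, with replicates 1 and 3 of 1000 nM at its ends, and HMOX1 at 1000 nM stays near 0.

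SRXN1 encodes sulfiredoxin, which repairs peroxiredoxins that were oxidised too far. It had 19.1, 24.9 and 17.1 CPM at 1000 nM, against 35.8, 38.6 and 45.4 CPM as lowest, median and highest DMSO value. The means were 20.4 ± 4.01 CPM at 1000 nM and 39.0 ± 1.51 CPM in DMSO (SD, n = 3 each). All treated libraries were well below all DMSO libraries, and the level was 1.92-fold lower (log2 fold change -0.94, SE 0.174, adjusted p = 2.36e-05). Without the 3 farthest libraries the log2 fold change was -0.66 (adjusted p = 0.0308). SRXN1 was called lower from 30 nM on, by -0.47 at 30 nM (adjusted p = 0.0324), -0.83 at 100 nM (adjusted p = 0.000154) and -0.57 at 300 nM (adjusted p = 0.00686). The call at 30 nM was lost without replicate 3 of that dose (-0.28, adjusted p = 0.292), replicate 2 of DMSO chip 1 (adjusted p = 0.0925), or replicate 1 (0.0818) or 3 (0.079) of DMSO chip 2, and the call at 300 nM without replicate 2 of that dose (-0.41, adjusted p = 0.0779). HMOX1 and SRXN1, both NRF2 targets, were called in opposite directions at 30, 100, 300 and 1000 nM.

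TXNRD1, the cytosolic thioredoxin reductase, was at the edge of detection. It had 2, 4 and 4 counts at 1000 nM, against 8 counts in the 6 DMSO libraries together, and 0 to 5 counts in any library. The ratio of its share of counts at 1000 nM to that in DMSO was 2.38, with an exact 95% counting interval of 0.846 to 6.94, which includes 1. The interval covers counting error only. A difference was not detectable at these counts. Whether the counts are low because of its level in the cells or because of its 1 assay was not tested.

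CYP1A1 encodes the cytochrome P450 that oxidises aromatic hydrocarbons and is the standard readout of AhR. It had 28, 16 and 18 counts at 1000 nM, or 7.88, 4.68 and 4.34 CPM, against 0.628, 1.48 and 2.50 CPM as lowest, median and highest DMSO value. The means were 5.63 ± 1.95 CPM at 1000 nM and 1.51 ± 0.724 CPM in DMSO (SD, n = 3 each). The groups were apart, at a level low enough that single libraries rest on few reads. The log2 fold change was 1.86 (SE 0.416, adjusted p = 0.00021).

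At every dose from 3 nM up all CYP1A1 libraries were above all DMSO libraries, but at 3 nM the gap was very small. The lowest library of 3 nM had 2.56 CPM and the highest DMSO library 2.50 CPM. At that dose the gene was not called (log2 fold change 0.90, SE 0.453, adjusted p = 0.201). At 10 nM the libraries had 2.91, 2.67 and 3.04 CPM, which did not pass the test either. The gene was called at 30 nM (log2 fold change 1.52, SE 0.433, adjusted p = 0.00374), 100 nM (1.55, SE 0.429, adjusted p = 0.00272) and 300 nM (1.77, SE 0.418, adjusted p = 0.000386).

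ALDH3A1 encodes an aldehyde dehydrogenase that clears aldehydes from lipid peroxidation. It had 79.4, 62.0 and 54.0 CPM at 1000 nM, against 13.1, 22.1 and 27.3 CPM as lowest, median and highest DMSO value. The means were 65.1 ± 12.9 CPM at 1000 nM and 21.0 ± 5.94 CPM in DMSO (SD, n = 3 each). The lowest treated library was still well above the highest DMSO library, and the log2 fold change was 1.64 (SE 0.219, adjusted p = 3.76e-07).

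The mean of ALDH3A1 along the dose series was 21.9 CPM at 0.03 nM, 19.0 CPM at 0.1 nM, 26.8 CPM at 0.3 nM, 29.5 CPM at 1 nM, 39.5 CPM at 3 nM, 49.3 CPM at 10 nM, 54.7 CPM at 30 nM, 70.8 CPM at 100 nM and 64.9 CPM at 300 nM. At 3 nM, where the libraries had 47.5, 29.0 and 42.0 CPM, it was called higher (log2 fold change 0.92, SE 0.224, adjusted p = 0.00728), and this call was lost without replicate 1 of 3 nM (adjusted p = 0.0587) and without replicate 2 of DMSO chip 2 (adjusted p = 0.0745). At 10 nM the log2 fold change was 1.24 (SE 0.225, adjusted p = 0.000136) and at 100 nM 1.76 (SE 0.217, adjusted p = 9.41e-08).

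TIPARP encodes an ADP-ribosyltransferase that AhR induces and that in turn restrains AhR. It had 49.8, 39.2 and 39.1 CPM at 1000 nM, against 35.8, 44.3 and 62.0 CPM as lowest, median and highest DMSO value, and the groups overlapped throughout (log2 fold change -0.09, SE 0.134, adjusted p = 0.581). At 3, 10 and 30 nM all its libraries were below all DMSO libraries, at 3 and 10 nM only narrowly. The highest library had 35.2 CPM at 3 nM and 35.6 CPM at 10 nM, against 35.8 CPM as the lowest DMSO value. TIPARP was not called at 3 nM (adjusted p = 0.231) or 10 nM (adjusted p = 0.229). At 30 nM, with 28.2, 28.5 and 31.8 CPM, it was called lower (-0.61, SE 0.14, adjusted p = 0.0147). That call was lost when replicate 3 of DMSO chip 1 (adjusted p = 0.128), replicate 1 of 30 nM (adjusted p = 0.0518) or replicate 2 of 30 nM (adjusted p = 0.0511) was left out. Between the DMSO chips, TIPARP was higher by 0.39 on the log2 scale on chip 2 than on chip 1, with an unadjusted p of 0.00532, the only 1 of the 9 genes below 0.05. After adjustment no gene was called between the chips (background 0%), and DESeq2 and limma voom called none of the 9 either.

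AHR had 88.1, 73.7 and 86.9 CPM at 1000 nM, against 72.4, 90.3 and 118 CPM as lowest, median and highest DMSO value. The 2 groups overlapped, and the log2 fold change was -0.15 (SE 0.217, adjusted p = 0.952). AHR was called against DMSO at none of the 10 doses. 

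Comparisons between doses a factor of 10 apart set no dose against DMSO, although the DMSO libraries enter the fit that gives the spread. The labels give no chip for treated libraries, so a chip difference within a step cannot be told apart from dose. Between the DMSO chips, HMOX1, AHR, GCLC and ALDH3A1 were higher on chip 2 by 0.25, 0.23, 0.15 and 0.13 on the log2 scale, none of them called. From 0.1 to 1 nM, 15% of all tested genes were called, 8.16% higher and 6.87% lower at 1 nM, and among the 9 genes GCLC was lower at 1 nM (log2 fold change -1.01, adjusted p = 0.0436) and so was AHR (-0.61, adjusted p = 0.0496). The AHR step rested on replicate 2 of 0.1 nM, with 175 CPM against 99.4 and 112 CPM in the other 2 libraries, and was -0.34 without it (adjusted p = 0.34). The AHR step was also lost without any 1 of the 3 libraries of 1 nM (adjusted p = 0.0888 to 0.113), and the GCLC step without any 1 of those (0.0539 to 0.118) or without replicate 2 (0.0724) or 3 (0.16) of 0.1 nM. With the DMSO libraries summed over chips the GCLC step was not called (adjusted p = 0.0501), nor was the AHR step without the 3 libraries farthest from their group means (adjusted p = 0.0998). From 1 to 10 nM (background 15.4%, 7.06% higher and 8.36% lower) ALDH3A1 was higher at 10 nM (0.76, SE 0.211, adjusted p = 0.0122) and so was HMOX1 (0.66, SE 0.201, adjusted p = 0.0185). Without replicate 3 of 10 nM both were lost (adjusted p = 0.0868 for ALDH3A1 and 0.0751 for HMOX1), as was ALDH3A1 without replicate 3 of 1 nM (0.0712) and HMOX1 without replicate 1 (0.0946) or 2 (0.0606) of 1 nM. Without the 3 farthest libraries the HMOX1 step was 0.53 (adjusted p = 0.0971). From 10 to 100 nM (background 5.14%, 1.78% higher and 3.35% lower) only HMOX1 among the 9 was called, higher at 100 nM by 0.82 (SE 0.176, adjusted p = 0.00182). ALDH3A1 differed by 0.52 in that step (adjusted p = 0.114). From 100 to 1000 nM none of the 9 was called (background 0.00826%), also by DESeq2 and limma voom, and 1 of them, TIPARP, had an unadjusted p below 0.05.

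A saturating curve fitted to the log2 CPM values placed the midpoint dose (EC50) of ALDH3A1 at 2.52 nM, with a range of 1.80 to 3.53 nM for 1 SE on either side. That of HMOX1 was 10.7 nM, with a range of 8.13 to 14.2 nM. The difference between the 2 was not tested. Leaving out single doses or changing the prior count left ALDH3A1 between 2.27 and 2.68 nM and HMOX1 between 9.58 and 11.4 nM. The curves of CYP1A1 (3.69 nM) and SRXN1 (12.7 nM) were not well fitted, with an SE of 0.287 and 0.291 for log10 EC50, above the limit of 0.2. No curve was fitted to the other genes, which were not called at 1000 nM or changed by less than 0.5 on the log2 scale.

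Over the means of the 12 groups, HMOX1 had a Pearson correlation of 0.955 with ALDH3A1, 0.940 with CYP1A1, 0.882 with NQO1 and -0.930 with SRXN1. SRXN1 went with GCLM (0.867), and TIPARP with AHR (0.891). These values describe 12 points that share a dose series, in which many genes follow the dose: 11.9% of 11037 genes correlated with HMOX1 above 0.9 and 7.04% with CYP1A1. The genes most like HMOX1 were PIK3R3 (r = 0.992), a regulatory subunit of PI3 kinase, HSBP1L1 (r = 0.988) and PDCD4 (r = 0.988), a translation inhibitor. Those most like CYP1A1 were LOC729013 (r = 0.993), CLTC (r = 0.981), the clathrin heavy chain, and ENPP4 (r = 0.981).

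NFE2L2 itself, its relatives and genes that regulate NRF2 or pair with it, taken as 1 list, also changed in both directions. Of 11 such genes 9 were tested at 1000 nM, of which 4 were called higher and 3 lower (41.8% of all tested genes, 21.2% higher and 20.7% lower), with a median log2 fold change of 0.14. NFE2L2, which encodes NRF2, had 60.6 to 74.0 CPM at 1000 nM and 99.5 to 116 CPM in DMSO, with no overlap (log2 fold change -0.65, SE 0.13, adjusted p = 5.07e-05). MAFK, a small MAF partner, fell by 1.04 (SE 0.163, adjusted p = 2.82e-06) and NFE2L3, a relative of NRF2, by 0.58 (adjusted p = 0.000737), and the NFE2L3 value was -0.38 (adjusted p = 0.137) without the 3 libraries farthest from their group means. SQSTM1, the autophagy receptor p62 that sequesters KEAP1 and is itself an NRF2 target, had 749 to 1072 CPM at 1000 nM and 365 to 455 CPM in DMSO (log2 fold change 1.14, SE 0.0957, adjusted p = 8.37e-14). RBX1, a subunit of the CUL3 ligase, was higher by 0.43 (adjusted p = 0.00805), a call lost without replicate 1 (adjusted p = 0.085) or 2 (0.0556) of 1000 nM. NFE2L1, another relative of NRF2, was higher by 0.37 (adjusted p = 0.0275), but by 0.09 (adjusted p = 0.815) without replicate 1 of 1000 nM and by 0.22 (adjusted p = 0.332) without the 3 farthest libraries, and it was not called without replicate 1 (0.173) or 2 (0.103) of DMSO chip 1. KEAP1 (-0.21, adjusted p = 0.176) and BACH1 (0.14, adjusted p = 0.793) were not called.

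Among 32 other NRF2 targets, 27 were tested, and 8 were called higher and 5 lower, or 48.1% against 41.8% of all tested genes, with a median log2 fold change of -0.10. FTH1, the ferritin heavy chain that stores iron, had 8129.8 to 9961 CPM at 1000 nM and 2888 to 3196 CPM in DMSO (log2 fold change 1.57, SE 0.0825, adjusted p = 1.98e-21). AKR1C3, an aldo-keto reductase, was higher by 1.21 (SE 0.205, adjusted p = 5.53e-06). FTH1 has processed pseudogenes and AKR1C3 has near-identical relatives whose reads may be shared, so both values are uncertain in that respect. SLC7A11, which imports cystine for glutathione synthesis, had 33.8 to 34.5 CPM at 1000 nM and 183 to 212 CPM in DMSO (log2 fold change -2.55, SE 0.116, adjusted p = 1.6e-23). ABCC4, an exporter, was lower by a log2 fold change of -1.47 (SE 0.46, adjusted p = 0.0103), a value of -1.09 without replicate 1 of 1000 nM (adjusted p = 0.0643, not called) and of -2.45 without replicate 3 (adjusted p = 0.000324), and ME1, malic enzyme, by -0.92 (SE 0.159, adjusted p = 1.42e-05).

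**Figure D4:**
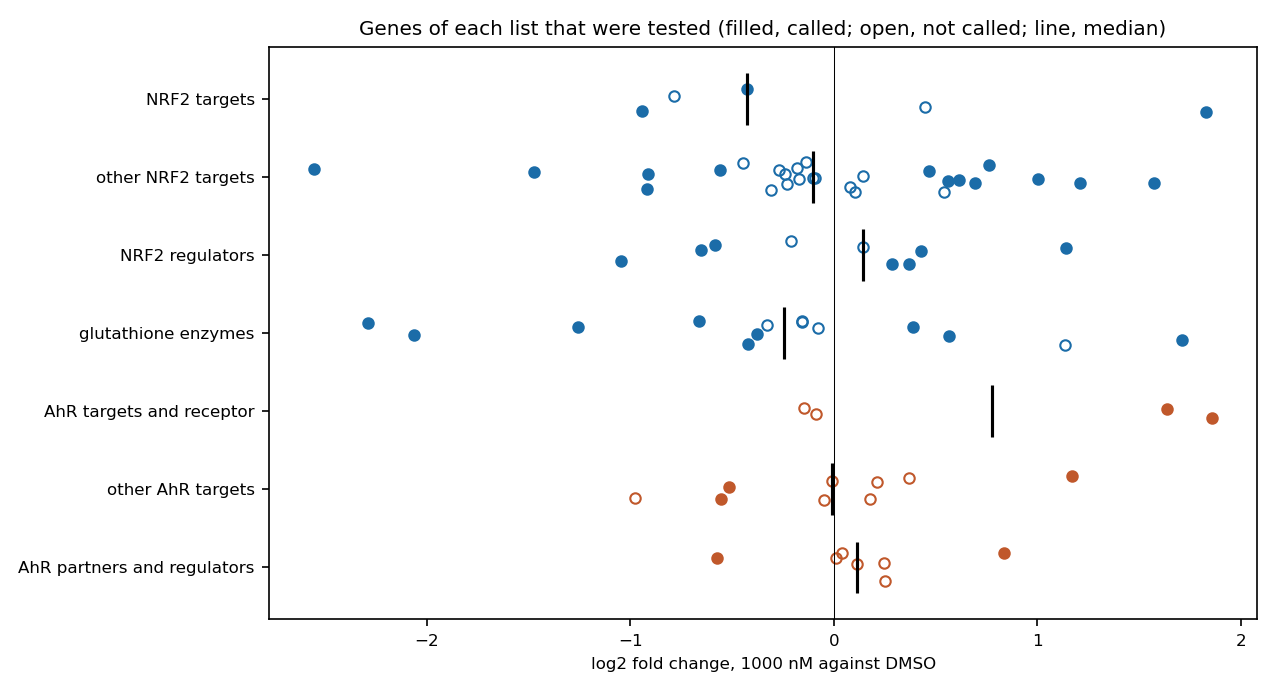
log2 fold change at 1000 nM against DMSO of every tested gene in 7 lists of the NRF2 (blue) and AhR (orange) pathways, filled where called, with the median as a line. Each list holds called genes on both sides of 0 except the AhR targets and receptor, where the 2 called genes are higher.

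Of 7 AhR partners and regulators, all tested, 1 was called higher and 1 lower, or 28.6% against 41.8% of all tested genes. ARNT, the DNA-binding partner of AhR, had 118 to 166 CPM at 1000 nM and 71.5 to 83.4 CPM in DMSO (log2 fold change 0.84, SE 0.107, adjusted p = 2.4e-08). HSP90AB1, a chaperone of the receptor complex, had 804 to 1073 CPM at 1000 nM and 1238 to 1500.2 CPM in DMSO (log2 fold change -0.58, SE 0.107, adjusted p = 5.39e-05). AHRR, the AhR repressor and a classical target, was not called (0.25, SE 0.277, adjusted p = 0.819).

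Of 14 other AhR targets 9 were tested, and 1 was called higher and 2 lower, or 33.3% against 41.8% of all tested genes, with a median log2 fold change of -0.01. ALDH1A3, a retinaldehyde dehydrogenase, was higher by 1.17 (SE 0.208, adjusted p = 3.98e-05). CYP2S1, another P450, was lower by a log2 fold change of -0.55 (SE 0.105, adjusted p = 5.25e-05), and SLC7A5, an amino acid transporter, by -0.52 (SE 0.0992, adjusted p = 9.93e-05). CYP1B1, which AhR induces together with CYP1A1 in many cells, was not called (0.18, SE 0.184, adjusted p = 0.613).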

How the data were processed

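Whole-number read counts per gene, with no normalization, were deposited by the authors for 36 libraries. Per the labels' protocols, 10 ng of RNA was reverse transcribed and amplified as Ion AmpliSeq amplicons, with 18 samples per pool. Per the submitters' processing notes the genome build is hg19, with the aligner and counter not given in the sources used here. Of 20812 rows, 10 are spike-in controls at 0 counts and were left out.

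From these counts, edgeR 4.0.16 (R 4.3.3) kept 12102 genes with filterByExpr, scaled by TMM, and fitted one robust quasi-likelihood model of 12 groups (24 residual degrees of freedom). DMSO of chip 1 and DMSO of chip 2 each served as the reference for a dose. The larger p received Benjamini-Hochberg adjustment across the 12102 genes, and a call needed a value below 0.05 with the same sign in both. Fold changes use the average of the 2 DMSO groups and carry the larger SE. CPM uses TMM library sizes, and log2 CPM a prior count of 1. Same-numbered DMSO libraries of the 2 chips deviated together from their group means (r = 0.156 to 0.312 in 3 pairs), so DMSO means and SDs are over 3 pair averages. EC50 came from a least squares fit of base + top × dose/(dose + EC50) for genes called at 1000 nM with an absolute log2 fold change of at least 0.5. Curves and figures were made in Python 3.11.15 (matplotlib 3.10.9, pandas 2.3.3, scipy 1.17.1, numpy 2.4.6). The model and the curve fit were tested on simulated data.

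Alternatives were other size factors, filters, fits, DMSO references, DESeq2 1.42.0, limma 3.58.1 (voom), a replicate block and leaving out single libraries. All 10 genes are named. Of each further list, up to 3 called genes per direction are named by fold change at 1000 nM, and for HMOX1 and CYP1A1, which changed most in each class, the 3 genes most correlated over group means. KEAP1, BACH1, AHRR, CYP1B1, FTL, BLVRB, FECH, SLC48A1, GPX1, NAPA and EIF4B were named after their values were seen. Some genes that the rules take are not reported here. The genes and lists were chosen with earlier results of these data known.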

Additional observations from a re-analysis of the deposited data

How the results depend on the processing

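HMOX1, SRXN1, CYP1A1 and ALDH3A1 were called at 1000 nM, each in 1 direction, in all of the settings run for that dose. The number of the 9 genes called there was 5, and between 4 and 7 over the alternatives. It was 5 with the replicate number as a block (replicate block), a fit in which the steps from 0.1 to 1 nM of GCLC and AHR lost their calls (adjusted p = 0.0545 and 0.053). Numbers did not pair the libraries of 1000 nM with DMSO: their same-numbered deviations correlated between -0.141 and 0.0673. At 0.3 nM the correlations with DMSO were all positive, from 0.0388 to 0.189. Over all pairs of groups other than the 2 DMSO groups they ran from -0.508 to 0.688. GCLM was lost in 6 settings, and GCLC and NQO1 were gained in 8 and 7, among them the mean of both DMSO groups as the reference. TIPARP at 1000 nM turned from -0.09 to 0.11 with DMSO of chip 1 alone (adjusted p = 0.52), where the cause was not tested. The rise of HMOX1 from 1 to 10 nM ranged from 0.53 to 0.84 over the alternatives (adjusted p = 0.00888 to 0.0971). The SRXN1 EC50 was 6.0 nM without 1000 nM and 21.7 nM without 300 nM, and the CYP1A1 EC50 ran between 1.62 and 7.53 nM when single doses were left out. The setting without the 3 farthest libraries and that with the axis of deviations were chosen after seeing the data. Low counts limit TXNRD1 and CYP1A1 most, and 3 libraries per dose limit small fold changes.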

Other observations

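Enzymes of glutathione metabolism outside the ligase changed in both directions at 1000 nM. Of 15 such genes 14 were tested, with 3 called higher and 6 lower, or 64.3% against 41.8% of all tested genes, and a median log2 fold change of -0.24, against 0.01 over all tested genes. MGST3, a microsomal glutathione transferase, had 294 to 413 CPM at 1000 nM and 102 to 122 CPM in DMSO (log2 fold change 1.71, SE 0.111, adjusted p = 8.27e-18). GSTP1, the main soluble transferase of colon cells, was higher by 0.57 (SE 0.105, adjusted p = 3.97e-05), and MGST2 by 0.39 (adjusted p = 0.0114), a call lost without replicate 1 of 1000 nM (0.27, adjusted p = 0.143) replicate 3 of DMSO chip 2 (0.32, adjusted p = 0.172) or the 3 libraries farthest from their group means (0.23, adjusted p = 0.387). CHAC1, which cleaves glutathione, had 20.7 to 33.5 CPM at 1000 nM and 120 to 147 CPM in DMSO (log2 fold change -2.29, SE 0.128, adjusted p = 1.83e-20). CHAC2, its relative, was lower by a log2 fold change of -2.06 (SE 0.461, adjusted p = 0.00036), with 28 counts in all at 1000 nM, and the value was -3.81 without replicate 3 of 1000 nM (adjusted p = 2.59e-07) and -3.54 without the 3 farthest libraries (adjusted p = 0.000145). GGCT was lower by a log2 fold change of -1.25 (SE 0.121, adjusted p = 9.92e-12). GPX1, a glutathione peroxidase, was lower by -0.66.

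Among the other NRF2 targets that handle heme or iron, FTH1, FTL and BLVRB were called higher, while FECH, which inserts iron into heme (log2 fold change -0.31), and SLC48A1, a heme transporter (-0.27), were not called. These genes were picked after their values were seen, so their count is not a result about heme or iron genes. At 1000 nM 41.8% of all tested genes were called, 21.2% higher and 20.7% lower. FTL, the ferritin light chain, had 624 to 737 CPM at 1000 nM and 469 to 536 CPM in DMSO (log2 fold change 0.47, SE 0.0982, adjusted p = 0.000152). BLVRB, a biliverdin reductase, had 73.6 to 97.7 CPM at 1000 nM and 51.4 to 68.6 CPM in DMSO (log2 fold change 0.56, SE 0.132, adjusted p = 0.000785). Along the doses, the log2 fold change of FTH1 was 0.22 at 1 nM, 0.75 at 10 nM and 1.39 at 100 nM, and that of SLC7A11 was -0.50, -2.14 and -2.43 at the same doses.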
